A study of Mus musculus with 4 samples.

Results

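The Ube2 genes encode most of the ubiquitin conjugating enzymes, or E2 enzymes, and were taken as every row of the deposited gene count table whose symbol begins with Ube2. The rule found 35 rows of 23240, all of which enter the counts given here. The table comes from an RNA-seq study of the developing mouse cortex, in which neurons and the neural progenitor cells (NPCs) that give rise to them were separated by fluorescence. The neurons were sorted for double colour, green and red, and the NPCs for green alone. Both came from cortices of embryos at embryonic day 15.5 that carried Nestin-GFP, heterozygous in one parent line, and DCX-mRFP, homozygous in the other, so both groups carry both transgenes and were parted by the sort gate. Nestin marks progenitors and doublecortin (DCX) marks young neurons, and a fluorescent protein can outlast the promoter that made it, which limits how cleanly the colours part the stages. Each group held 2 libraries of total RNA. The labels call them duplicates and do not name the embryos or litters, so p-values reflect no more than the spread of these libraries, and that spread may be technical.

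Ubiquitin is passed along a chain of enzymes. An E1 enzyme activates it, an E2 enzyme carries it on a cysteine, and an E3 ligase brings the loaded E2 to a substrate. The E2 often sets which kind of chain is built, and so whether the substrate is sent to the proteasome, moved or used as a signal. Some E2 enzymes carry relatives of ubiquitin such as SUMO, NEDD8 or ISG15 in its place. In the developing cortex, ubiquitin ligases drive exit from mitosis in progenitors and shape axons, dendrites and synapses in neurons.

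Library totals lay between 52611828 and 55615142 counts. Expression is given as CPM, a gene's counts scaled to a common library total, with TMM factors, which correct for a few very abundant genes taking a large share of a library. Changes are log2 ratios of neurons over NPCs ± standard error, with n = 2 libraries per group throughout, and adjusted p-values (Benjamini-Hochberg, over all genes tested) come from the quasi-likelihood test of edgeR. The sort genes bore out the labels: Nes was at 33.1 and 36.4 CPM in neurons, against 103 and 97.8 CPM in NPCs, and Dcx was at 1358 and 1441 CPM in neurons, against 468 and 493 CPM in NPCs. The 11 neuron markers, 10 of them higher in neurons, summed to 9719 and 9900 CPM in neurons, against 2486 and 2498 CPM in NPCs. The 12 radial glia markers, all higher in NPCs, summed to 715 and 735 CPM in neurons, against 3755 and 3737 CPM in NPCs. Markers of either kind thus had counts in both groups. Markers of other cell types also moved with the groups. All 11 tested endothelial and 9 of 10 tested erythroid markers were higher in NPCs, with levels given beside the results they touch. The 6 oligodendrocyte precursor markers summed to 5.08 and 5.15 CPM in neurons, against 175 and 177 CPM in NPCs, and the 7 pericyte markers to 8.38 and 7.85 CPM in neurons, against 226 and 231 CPM in NPCs. No list was at 0 as a whole in neurons. The part of these other cells in the results was not tested. In bulk libraries such as these, fewer cells of a type and less RNA per cell cannot be told apart.

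Most Ube2 genes differed little between neurons and NPCs, and a few differed widely in either direction. Of the 35 rows, 34 passed the filter on low counts and were tested. Ube2dnl was at 0 counts in all 4 libraries, and a count of 0 allows up to 3 counts per library, or 0.0503 to 0.0614 CPM. Of the 34 tested, 14 rose in neurons (41.2%, where 35.8% of all 15292 genes tested were), 7 were higher in NPCs (20.6%, where 36.9% of all genes were) and 13 did not pass an adjusted p of 0.05. In all, 61.8% of the tested Ube2 genes passed, against 72.6% of all genes, and these shares were not tested against each other. The median log2 change was 0.07 for the Ube2 genes and -0.019 for all genes, and the median size of a change, sign ignored, was 0.21 and 0.50. At least 1.5-fold changes were called for 6 Ube2 genes higher in neurons (all genes 19.0%) and 4 higher in NPCs (all genes 24.4%). At least 2-fold, 1 rose in neurons (all genes 11.5%) and 3 were higher in NPCs (all genes 18.5%). Both neuron libraries lay above both NPC libraries for 16 Ube2 genes (41.9% of all genes), both NPC libraries lay above for 11 (44.0% of all genes), and the groups overlapped for 7. Scaling by library size only moved the median of all genes to -0.23 and the share of all called genes that were higher in neurons to 33.5%, from 49.2%. Of the 34 Ube2 genes, 9 then rose in neurons and 16 were higher in NPCs, beside 3840 and 7610 of all 15292 genes. With upper-quartile factors the counts were 10 and 10, beside 4609 and 6582 of all genes. The direction of small changes thus holds relative to TMM scaling. Ube2a, Ube2l3, Ube2q1, Ube2m, Ube2r2, Ube2e3, Ube2v1, Ube2d3 and Ube2u, not called with TMM factors, passed as higher in NPCs by library size only, and Ube2e3, Ube2v1 and Ube2d3 did with upper-quartile factors. Together the 35 rows held 0.529% and 0.521% of the counts of the neuron libraries and 0.538% and 0.537% of those of the NPC libraries.

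**Figure D1:**
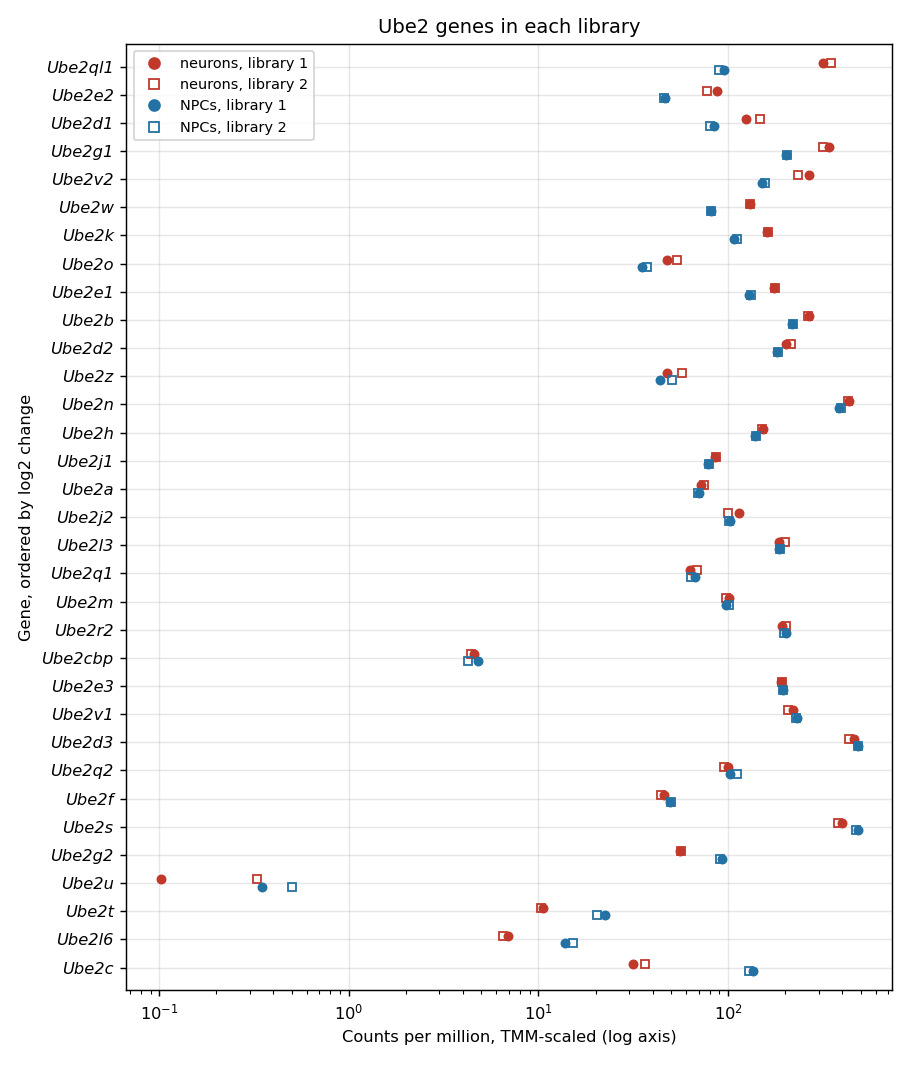
Level of the tested Ube2 genes in each library (1 not shown), as TMM-scaled CPM on a log axis, with genes ordered from the highest to the lowest log2 change of neurons over NPCs. The groups stand apart at the top (Ube2ql1) and the bottom (Ube2c) and lie close together or overlap through the middle.

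Of the 21 genes called, 14 kept their call under each of the 12 other settings tried. These were Ube2ql1, Ube2e2, Ube2d1, Ube2g1, Ube2v2, Ube2w, Ube2k, Ube2o and Ube2e1, higher in neurons, and Ube2c, Ube2l6, Ube2t, Ube2g2 and Ube2s, higher in NPCs. The other 7 calls were of changes under 1.25-fold and were lost under at least 1 setting. Of the 13 tested genes without a call, 1 (Ube2cbp) stayed so under every other setting that tested it. The lack of a call is thus not settled for the others. Leaving out 1 library leaves 1 in its group, so p-values of such fits rest on the spread of the other group alone. The neuron duplicates differed from each other more than the NPC duplicates did.

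The E2 enzymes of the anaphase-promoting complex (APC/C), the ligase that ends mitosis, were lower in neurons. Ube2c, which starts ubiquitin chains on APC/C substrates, was at 31.6 and 36.6 CPM in neurons, against 135 and 129.6 CPM in NPCs. The groups lay far apart, and Ube2c was 3.88-fold lower in neurons, a log2 change of -1.95 ± 0.069 (adjusted p = 1.7e-13 by edgeR), the lowest of the 34. Ube2s, which lengthens the chains that Ube2c starts, was at 398 and 379 CPM in neurons, against 482 and 474 CPM in NPCs. It was 1.23-fold lower in neurons, with a log2 change of -0.30 ± 0.054 (adjusted p = 9.8e-05), and the difference between the changes of Ube2c and Ube2s was not tested. Ube2cbp is named for binding Ube2c and is itself an E3 ligase, not an E2. It was at 4.59 and 4.42 CPM in neurons, against 4.83 and 4.27 CPM in NPCs, where the groups overlapped, and did not pass (adjusted p = 0.93). Summed over 18 mitosis genes, all 18 of them higher in NPCs (median log2 change -2.10), the level was 743 and 709 CPM in neurons, against 3093 and 3137 CPM in NPCs. The part of the number of dividing cells in the change of Ube2c was not tested. On the opposite strand, exons of Tnnc2 overlap 22.8% of the exon length of Ube2c, and Tnnc2 itself was at 0.102 and 0.136 CPM in neurons, against 0.365 and 0.151 CPM in NPCs.

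Promoters of Ube2c and Ube2s, the E2 genes of the APC/C, are shown with those of Ube2t, an E2 of DNA repair, and Ube2ql1. Genes that are switched on at mitosis are known to carry CCAAT boxes, read by the factor NF-Y, and a cell cycle homology region near the start. The 250 bases before the annotated start were searched on both strands for CCAAT, for TTTGAA and TTTAAA (forms of the homology region) and for TTTCCCGC and TTTGGCGC (forms of an E2F site). The sequences are from RefSeq, build GRCm38.p6, written 5′ to 3′ on the gene's strand and ending at the base before the start, and capitals mark every match on either strand. Ube2c (chr2:164769679-164769928, plus strand) and Ube2t (chr1:134962315-134962564, plus strand) were lower in neurons by 2-fold or more. Ube2s (chr7:4812341-4812590, minus strand) was lower by less. Ube2ql1 (chr13:69739898-69740147, minus strand) was the gene with the highest rise in neurons.
Ube2c: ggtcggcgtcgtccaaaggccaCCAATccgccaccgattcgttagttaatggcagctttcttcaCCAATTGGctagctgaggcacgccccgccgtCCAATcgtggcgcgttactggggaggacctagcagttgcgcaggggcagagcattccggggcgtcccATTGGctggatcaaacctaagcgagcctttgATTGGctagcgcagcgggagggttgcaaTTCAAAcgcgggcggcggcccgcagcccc
Ube2t: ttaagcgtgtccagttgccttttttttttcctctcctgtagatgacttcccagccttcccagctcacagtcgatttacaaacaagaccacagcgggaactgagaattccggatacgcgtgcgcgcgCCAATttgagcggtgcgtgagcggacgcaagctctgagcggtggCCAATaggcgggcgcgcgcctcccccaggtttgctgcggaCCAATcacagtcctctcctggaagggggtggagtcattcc
Ube2s: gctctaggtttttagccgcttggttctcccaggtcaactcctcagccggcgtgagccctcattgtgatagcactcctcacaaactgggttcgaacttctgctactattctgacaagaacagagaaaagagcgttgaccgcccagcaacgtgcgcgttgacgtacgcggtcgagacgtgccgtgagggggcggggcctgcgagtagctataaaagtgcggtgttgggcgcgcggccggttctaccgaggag
Ube2ql1: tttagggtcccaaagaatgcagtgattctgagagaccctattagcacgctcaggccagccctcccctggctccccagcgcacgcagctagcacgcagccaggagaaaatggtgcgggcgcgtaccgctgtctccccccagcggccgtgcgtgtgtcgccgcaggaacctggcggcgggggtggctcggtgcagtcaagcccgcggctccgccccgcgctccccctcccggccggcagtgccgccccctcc

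The Ube2c promoter held 6 matches to CCAAT, of which the pair in the run CCAATTGG overlaps on opposite strands, and 1 match to TTTGAA, read as TTCAAA, that begins 29 bases before the start. Ube2t held 3 matches to CCAAT, which begin 124, 80 and 40 bases before the start. Ube2s and Ube2ql1 held no match to any of these motifs in this window. Of 32851 promoters in the table, 33.8% held CCAAT at least once, 2.79% at least 3 times and 0.0578% (19 promoters) at least 6 times. TTTGAA was in 16%, TTTAAA in 12.1%, TTTCCCGC in 0.895% and TTTGGCGC in 0.417%. Of the 35 Ube2 genes, 28 matched a promoter in the table, with 39 promoters among them, and 7 of those 39 (17.9%) held CCAAT. The third gene with at least 3 matches was Ube2f, at 1 of its 2 promoters, and that promoter also held 1 match to TTTGAA and 1 to TTTAAA. Ube2f changed by under 1.25-fold. A match describes letters in a window and not a bound site.

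Of 6 E2 genes of DNA repair and chromatin, 3 rose in neurons (all genes 35.8%) and 1 was higher in NPCs (all genes 36.9%). The counts were 1 and 3 by library size only and 2 and 2 with upper-quartile factors. Ube2t attaches ubiquitin to Fancd2 in the Fanconi pathway of crosslink repair. It was at 10.6 and 10.3 CPM in neurons, against 22.3 and 20.4 CPM in NPCs. Both NPC libraries lay well above the neuron libraries, and Ube2t was 2.04-fold lower in neurons (log2 -1.03 ± 0.09, adjusted p = 2.4e-08). Ube2n builds chains used in repair and signalling and needs a partner that resembles an E2 but has no catalytic cysteine, either Ube2v1 or Ube2v2. The enzyme Ube2n was at 434 and 429 CPM in neurons, against 386 and 394 CPM in NPCs, a log2 change of 0.15 ± 0.052 (adjusted p = 0.019) in a call lost without NPC library 1 (log2 0.13, adjusted p = 0.22) or NPC library 2 (log2 0.16, adjusted p = 0.14). Of its partners, Ube2v2 was at 266 and 233 CPM in neurons, against 151 and 156 CPM in NPCs. It rose 1.62-fold in neurons, a log2 change of 0.70 ± 0.063 (adjusted p = 3.2e-08). Ube2v1 was at 219 and 208 CPM in neurons, against 231 and 229 CPM in NPCs, and its log2 change of -0.11 ± 0.053 missed the threshold (adjusted p = 0.083). With upper-quartile factors Ube2v1 passed as higher in NPCs (log2 -0.21, adjusted p = 0.0019). Without neuron library 1 the log2 change of Ube2v1 was -0.13, and a same-strand gene, Gm20431, covers 77.5% of its exon length.

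Ube2a and Ube2b are near-twins that attach ubiquitin to histone H2B and to the replication clamp PCNA. Ube2b was at 268 and 263 CPM in neurons, against 218 and 219 CPM in NPCs. It was 1.22-fold higher in neurons (log2 0.28 ± 0.052, adjusted p = 0.00013), and with library size as the only scaling the change was 0.075 (adjusted p = 0.20). Ube2a was at 71.9 and 74.5 CPM in neurons, against 70.0 and 69.3 CPM in NPCs, and did not pass (log2 0.071 ± 0.057, adjusted p = 0.27), though by library size only it passed as higher in NPCs (log2 -0.14, adjusted p = 0.039).

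Of 12 further ubiquitin E2 enzymes, most of which serve several ligases, 7 rose in neurons (35.8% of all genes did). Higher in NPCs were 0 of 12 by edgeR (36.9% of all genes were), by DESeq2 or at an unadjusted p under 0.05. Their median log2 change was 0.18. With library size as the only scaling, 5 were higher in neurons and 4 in NPCs, and with upper-quartile factors 5 and 2. The group was not tested as a whole. Ube2e2, one of 3 E2 enzymes with an extended N terminus, was at 87.6 and 77.4 CPM in neurons, against 46.4 and 45.9 CPM in NPCs. It rose 1.79-fold (log2 0.84 ± 0.066, adjusted p = 5.9e-09). Ube2e1 was at 175 and 177 CPM in neurons, against 128 and 132 CPM in NPCs, a rise of 1.35-fold (log2 0.43 ± 0.053, adjusted p = 1.3e-06). Exons of Nkiras1 on the opposite strand overlap 51.0% of the Ube2e1 exon length, and Nkiras1 moved the same way by 0.50 ± 0.054 (log2). Reads in the overlap cannot be told apart without strand, and the strand setting of the counts is not given. The third, Ube2e3, was at 189.6 and 192 CPM in neurons, against 195 and 194 CPM in NPCs, and did not pass (log2 -0.027 ± 0.052, adjusted p = 0.66).

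The Ube2d enzymes work with a very wide range of ligases. Ube2d1 was at 124 and 146 CPM in neurons, against 84.7 and 80.7 CPM in NPCs. The neuron libraries differed from each other more than the NPC libraries did but lay above both, and Ube2d1 rose 1.64-fold (log2 0.71 ± 0.07, adjusted p = 9.6e-08). Ube2d2 was at 203 and 214 CPM in neurons, against 180.5 and 183 CPM in NPCs, 1.15-fold higher in neurons (log2 0.20 ± 0.054, adjusted p = 0.0033). That call was lost without NPC library 1 (log2 0.19, adjusted p = 0.065), and with library size only the change was -0.0078. Ube2d3 was at 460.2 and 432 CPM in neurons, against 482 and 482 CPM in NPCs, and did not pass (log2 -0.11 ± 0.055, adjusted p = 0.076). With upper-quartile factors Ube2d3 passed as higher in NPCs (log2 -0.21, adjusted p = 0.0018). Without neuron library 1 its log2 change was -0.15.

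Ube2w, which attaches ubiquitin to the N terminus of proteins, was at 130.3 and 131 CPM in neurons, against 81.4 and 81.3 CPM in NPCs. Its duplicates lay close together, and it rose 1.61-fold (log2 0.68 ± 0.053, adjusted p = 4.9e-09). Ube2k, an E2 that builds degradation chains by itself and binds huntingtin, was at 160.3 and 162 CPM in neurons, against 108 and 111 CPM in NPCs, a rise of 1.47-fold (log2 0.56 ± 0.053, adjusted p = 6.2e-08). Ube2h, the E2 of the CTLH ligase, was at 154 and 150.4 CPM in neurons, against 138 and 140.4 CPM in NPCs. Its log2 change of 0.13 ± 0.052 (adjusted p = 0.039) was lost without NPC library 1 (log2 0.11, adjusted p = 0.27) or NPC library 2 (log2 0.14, adjusted p = 0.17), and 63.1% of its longest transcript has stretches of at least 101 bases in other genes at 97% identity or more. Such stretches covered 32.9% of the longest transcript of Ube2q2, 22.4% of Ube2j2, 22.3% of Ube2v1 and 17.9% of Ube2d2. In each other Ube2 gene they covered 11.9% or less. Ube2l3, which works with HECT and RBR ligases only, was at 186 and 200.2 CPM in neurons, against 185 and 187 CPM in NPCs. The groups overlapped and it did not pass (log2 0.054 ± 0.055, adjusted p = 0.39), and without neuron library 1 its log2 change was 0.12. By library size only it passed as higher in NPCs (log2 -0.15, adjusted p = 0.019). Exons of Ydjc overlap 29.8% of Ube2l3 on the opposite strand, and Ydjc was at 11.4 and 12.8 CPM in neurons, against 1.95 and 2.31 CPM in NPCs. Ube2r2, an E2 of cullin ligases, was at 193 and 202 CPM in neurons, against 201 and 198 CPM in NPCs, overlapping between groups (log2 -0.015 ± 0.053, adjusted p = 0.81). Ube2z, which is loaded by the E1 enzyme Uba6, was at 47.7 and 57.3 CPM in neurons, against 43.7 and 50.4 CPM in NPCs, also overlapping (log2 0.16 ± 0.084, adjusted p = 0.10). Without 1 library its log2 change ranged from 0.028 to 0.30.

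In the group that includes the E2 enzymes of the endoplasmic reticulum, the paralogs Ube2g1 and Ube2g2 went in opposite directions. Ube2g1, which lengthens degradation chains on substrates of cullin ligases, was at 342 and 316 CPM in neurons, against 202 and 204 CPM in NPCs. It rose 1.62-fold (log2 0.70 ± 0.056, adjusted p = 6.9e-09). Ube2g2, which acts on misfolded proteins of the endoplasmic reticulum, was at 55.9 and 56.4 CPM in neurons, against 92.9 and 90.8 CPM in NPCs. It was 1.64-fold lower in neurons (log2 -0.71 ± 0.056, adjusted p = 6.5e-09), and the groups of neither gene overlapped. Ube2j1 and Ube2j2 are anchored in the membrane of the same organelle. Ube2j1 was at 85.8 and 86.0 CPM in neurons, against 78.4 and 79.2 CPM in NPCs. Its log2 change of 0.12 ± 0.055 fell just short of the threshold (adjusted p = 0.051). With all 4 libraries it passed under RLE factors (log2 0.13, adjusted p = 0.041) and without the low-count filter (log2 0.13, adjusted p = 0.049). By limma-voom it passed as well (log2 0.12, adjusted p = 0.048). The log2 change of Ube2j1 was 0.14 without neuron library 1 and 0.13 without neuron library 2. Ube2j2 was at 114 and 99.9 CPM in neurons, against 102 and 101 CPM in NPCs, overlapping between groups (log2 0.069 ± 0.062, adjusted p = 0.33). Without neuron library 2 its log2 change was 0.17, and without neuron library 1 its sign turned (log2 -0.016).

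Of the E2 enzymes for ISG15 and NEDD8, only the ISG15 enzyme changed by more than 1.25-fold. Ube2l6, which carries the interferon-induced modifier ISG15, was at 6.90 and 6.49 CPM in neurons, against 13.8 and 15.2 CPM in NPCs. It was 2.17-fold lower in neurons (log2 -1.12 ± 0.11, adjusted p = 6.0e-08). The E1 enzyme of the same pathway, Uba7, was at 0.0614 and 0.0194 CPM in neurons, against 0.347 and 0.603 CPM in NPCs, which is about 3 reads or fewer in a neuron library (adjusted p = 0.00021). Isg15 itself was at 0.205 and 0.368 CPM in neurons, against 0.208 and 0.402 CPM in NPCs, without a call (adjusted p = 0.88). In the same libraries 12 endothelial markers summed to 12.0 and 11.6 CPM in neurons, against 268 and 275 CPM in NPCs and 10 microglia markers to 18.1 and 18.2 CPM in neurons, against 37.7 and 37.7 CPM in NPCs, and their part in the level of Ube2l6 was not tested. The NEDD8 enzymes, which switch cullin ligases on, were nearly level. Ube2m was at 101 and 97 CPM in neurons, against 98.0 and 101 CPM in NPCs, where the groups overlapped (log2 -0.0077 ± 0.055, adjusted p = 0.91). Ube2f, the NEDD8 enzyme that serves Cul5, was at 45.9 and 44.3 CPM in neurons, against 49.7 and 49.8 CPM in NPCs. Its log2 change of -0.14 ± 0.061 passed narrowly (adjusted p = 0.0497). With all 4 libraries the call was lost under RLE factors (adjusted p = 0.066), without the low-count filter (adjusted p = 0.085) and by DESeq2 (adjusted p = 0.13). It was also lost without NPC library 1 (log2 -0.14), NPC library 2 (log2 -0.14) or neuron library 2 (log2 -0.11).

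Among the large or divergent members, Ube2ql1 had the highest rise of the family. Ube2ql1 resembles the Q-type E2 enzymes and has been tied in human cells to the ligase component Fbxw7. It was at 316 and 349 CPM in neurons, against 95.3 and 89.8 CPM in NPCs. Both neuron libraries stood more than 3-fold above the NPC libraries, and it rose 3.60-fold (log2 1.85 ± 0.062, adjusted p = 9.5e-14). Fbxw7 itself was at 71.3 and 72.7 CPM in neurons, against 66.9 and 65.8 CPM in NPCs, and did not pass (log2 0.12 ± 0.057, adjusted p = 0.071). Ube2o, a large protein that acts as both E2 and E3 and clears ribosomal proteins in maturing red cells, was at 47.9 and 53.9 CPM in neurons, against 35.1 and 37.3 CPM in NPCs. It rose 1.41-fold in neurons (log2 0.49 ± 0.071, adjusted p = 9.1e-06). The part of red cells in the level of Ube2o was not tested. The 12 erythroid markers, mainly globins, summed to 317 and 311 CPM in neurons, against 2300.5 and 1893 CPM in NPCs. Near-identical globin pairs had nearly the same counts, so their reads may enter that sum more than once, and Hbb-bh1 was at 0 in both neuron libraries. Ube2q1 was at 62.6 and 68.7 CPM in neurons, against 67.3 and 64.1 CPM in NPCs, and overlapped between groups (log2 -0.0011 ± 0.063, adjusted p = 0.99). Ube2q2 was at 99.4 and 95.6 CPM in neurons, against 103 and 111 CPM in NPCs. Its log2 change of -0.13 ± 0.058 passed narrowly (adjusted p = 0.0498). With all 4 libraries the call was lost under RLE factors (adjusted p = 0.066), without the low-count filter (adjusted p = 0.076) and by DESeq2 (adjusted p = 0.11). It was also lost without NPC library 1 (log2 -0.19), NPC library 2 (log2 -0.075) or neuron library 2 (log2 -0.10). Ube2u was rare, at 0.102 and 0.329 CPM in neurons, against 0.347 and 0.503 CPM in NPCs, and did not pass (adjusted p = 0.10). Without neuron library 2 its log2 change was -2.02, and without neuron library 1 it was -0.36.

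**Figure D2:**
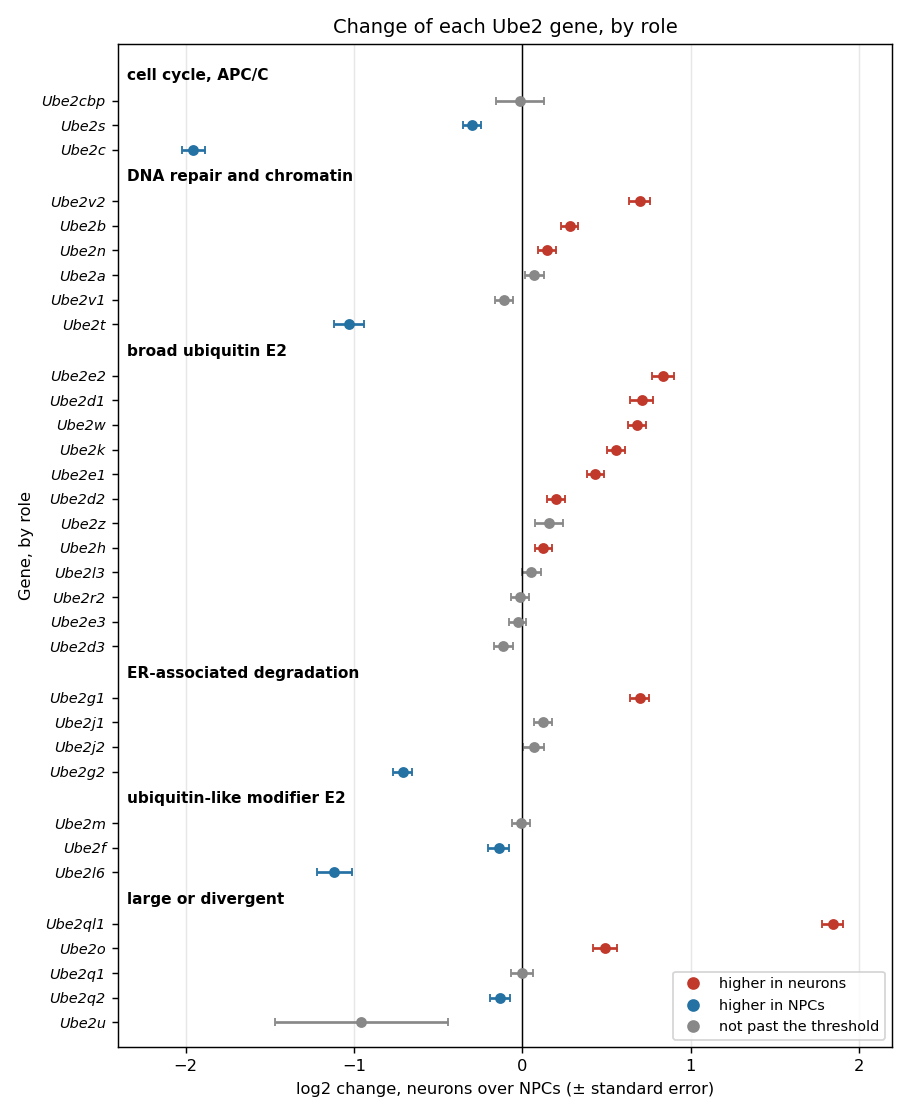
Log2 change of neurons over NPCs for the tested Ube2 genes (1 not shown), grouped by role, with bars for the standard error (n = 2 libraries per group) and colour for the call. Ube2ql1 lies at 1.85 and Ube2c at -1.95, and most others lie within 1 of 0.

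Related E2 genes were next compared by the ratio of their counts within a library, which no scaling between libraries can alter. The change of such a ratio between groups does not depend on gene length. Of 12 pairs, 8 had a higher ratio in both neuron libraries than in both NPC libraries, 2 had a lower one and 2 overlapped. Among single genes, 86.0% of all tested did not overlap between groups, and this share was not worked out for ratios of other genes. With 2 libraries against 2, an exact two-sided permutation test cannot go below p = 0.333, which was the value for all 10 pairs that did not overlap, so none could pass. Ube2g1 to Ube2g2 moved most, at 6.10 and 5.61 in neurons, against 2.17 and 2.24 in NPCs, a log2 change of 1.41 in the ratio. Ube2v1 to Ube2v2, the alternative partners of Ube2n, stood at 0.824 and 0.893 in neurons, against 1.53 and 1.46 in NPCs (log2 -0.80), so Ube2v2 had more counts than Ube2v1 in both neuron libraries and fewer in both NPC libraries. Per length the order did not turn: Ube2v1 was at 101 and 96.3 CPM per kb in neurons, against 107 and 106 CPM per kb in NPCs, and Ube2v2 was at 62.2 and 54.5 CPM per kb in neurons, against 35.4 and 36.6 CPM per kb in NPCs.

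Within the Ube2d and Ube2e groups the counts were set against Ube2d3 and Ube2e3. Ube2d1 to Ube2d3 was 0.269 and 0.339 in neurons, against 0.176 and 0.168 in NPCs (log2 0.82). Ube2d2 to Ube2d3 was 0.440 and 0.496 in neurons, against 0.374 and 0.379 in NPCs (log2 0.31). Ube2e2 to Ube2e3 was 0.462 and 0.402 in neurons, against 0.238 and 0.237 in NPCs (log2 0.86), and Ube2e1 to Ube2e3 was 0.922 and 0.920 in neurons, against 0.657 and 0.681 in NPCs (log2 0.46). All 4 of these ratios were higher in both neuron libraries, but pairs that share Ube2d3 or Ube2e3 are not independent.

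Ube2l3 to Ube2l6 was 27.0 and 30.8 in neurons, against 13.4 and 12.3 in NPCs (log2 1.17). Ube2r2 to Cdc34, its paralog under another name and also an E2 of cullin ligases, was 5.29 and 5.87 in neurons, against 4.0 and 4.15 in NPCs (log2 0.45). The NEDD8 enzymes Ube2m to Ube2f were at 2.19 and 2.19 in neurons, against 1.97 and 2.02 in NPCs (log2 0.13). Ube2a to Ube2b was 0.268 and 0.283 in neurons, against 0.321 and 0.317 in NPCs (log2 -0.21), the other pair that was lower in neurons. Ube2q1 to Ube2q2, at 0.630 and 0.718 in neurons, against 0.656 and 0.578 in NPCs, and Ube2j1 to Ube2j2, at 0.755 and 0.861 in neurons, against 0.767 and 0.781 in NPCs, overlapped between groups (exact p = 0.667 and 1).

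**Figure D3:**
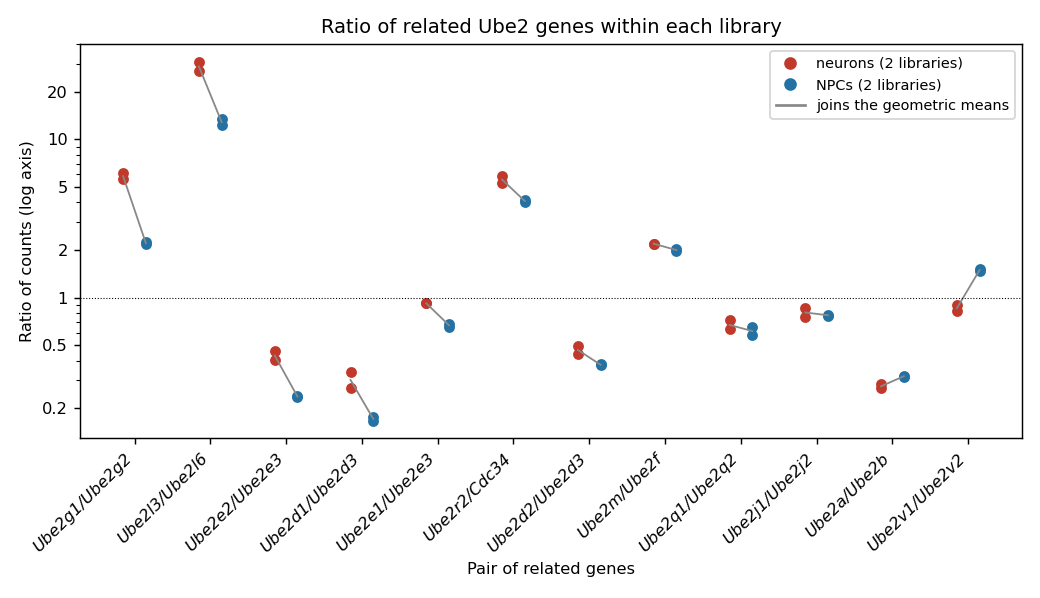
Ratio of the counts of 2 related genes within each library, on a log axis, for 12 pairs ordered by the change of the ratio from neurons above to neurons below NPCs. Points are libraries and lines join the geometric means; the ratios of Ube2g1 to Ube2g2 and of Ube2l3 to Ube2l6 are higher in both neuron libraries, and Ube2v1 to Ube2v2 crosses 1.

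Levels of different genes can be compared only per length. They were divided by the exon length of protein-coding transcripts in GENCODE M21, which is not stated to be the annotation behind the counts, so the order is approximate. On this scale Ube2s was the highest of the family in all 4 libraries, at 321 and 306 CPM per kb in neurons, against 389 and 383 CPM per kb in NPCs. Ube2b followed at 143 and 140.0 CPM per kb in neurons, against 116 and 116 CPM per kb in NPCs. Ube2ql1 was at 118 and 131 CPM per kb in neurons, against 35.6 and 33.6 CPM per kb in NPCs, among the upper members in neurons and in the middle in NPCs. Ube2c was at 12.1 and 14.1 CPM per kb in neurons, against 51.9 and 49.9 CPM per kb in NPCs. Ube2e1, Ube2n, Ube2v1 and Ube2d3 lay between 92.4 and 126 CPM per kb in neurons and between 91.0 and 107 CPM per kb in NPCs, close to each other in the order. In neurons the ranges of Ube2ql1 and Ube2e1 overlapped, as did those of Ube2v1, Ube2d3 and Ube2d1. In NPCs the ranges of Ube2v1, Ube2d3, Ube2n and Ube2e1 did not overlap. Ube2f, Ube2o, Ube2l6, Ube2cbp and Ube2u were among the lowest, each under 10.4 CPM per kb in every library.

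Genes that act before and after the E2 enzymes were examined through 11 lists, described by counts and medians without a test of the list. Of all 15292 genes tested, 35.8% rose in neurons and 36.9% were higher in NPCs. By library size only these were 3840 and 7610 genes, and with upper-quartile factors 4609 and 6582. Of 4 genes that encode ubiquitin, 3 rose in neurons and 1 was higher in NPCs, and the median log2 change was 0.18. By library size only or with upper-quartile factors, 1 rose in neurons and 1 was higher in NPCs. The polyubiquitin gene Ubb was at 10107 and 7746 CPM in neurons, against 5661 and 5433 CPM in NPCs, a log2 change of 0.69 ± 0.09 (adjusted p = 3.4e-06), and Rps27a, which encodes ubiquitin fused to a ribosomal protein, had one of -0.23 ± 0.075 (adjusted p = 0.012). Of 8 modifiers related to ubiquitin, 2 were higher in neurons and 1 in NPCs (median 0.028). By library size only, the calls were 3 genes higher in NPCs (median -0.18), and with upper-quartile factors 1. Atg12, a modifier used in autophagy, was at 116 and 119 CPM in neurons, against 101 and 101 CPM in NPCs, a log2 change of 0.22 ± 0.053 (adjusted p = 0.0014), and Sumo2, the modifier gene with the most counts, did not pass (log2 0.10 ± 0.053, adjusted p = 0.11).

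Of 9 genes of E1 enzymes, 6 rose in neurons (all genes 35.8%) and 2 were higher in NPCs (all genes 36.9%). The median log2 change was 0.26, and by library size only the counts were 3 and 2. Uba1, the main E1 of ubiquitin, was at 341 and 351 CPM in neurons, against 244 and 248 CPM in NPCs, a log2 change of 0.49 ± 0.053 (adjusted p = 2.9e-07). Nae1, a subunit of the NEDD8 E1, rose by 0.40 ± 0.053 (adjusted p = 3.6e-06). The subunits of the SUMO E1 parted, as Uba2 rose by 0.26 ± 0.053 (adjusted p = 0.00030) and Sae1 had a log2 change of -0.42 ± 0.057 (adjusted p = 5.9e-06). Of 8 genes of E2 enzymes and E2 variants that carry other names, 5 were higher in neurons (all genes 35.8%) and 2 in NPCs (all genes 36.9%). The median was 0.25, and by library size only the counts were 3 and 3. The inactive variant Tsg101, of the endosomal sorting machinery, was at 492 and 455 CPM in neurons, against 312 and 312 CPM in NPCs (log2 0.60 ± 0.056, adjusted p = 4.8e-08), and Uevld, another variant, had a log2 change of -0.74 ± 0.076 (adjusted p = 1.7e-07).

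The partners of Ube2c and Ube2t were set beside them. Of 16 tested genes of APC/C subunits and regulators, 4 rose in neurons (all genes 35.8%) and 4 were higher in NPCs (all genes 36.9%). The median log2 change was -0.017. The activator Cdc20 was at 21.1 and 19.5 CPM in neurons, against 96.2 and 94.9 CPM in NPCs, a log2 change of -2.23 ± 0.065 (adjusted p = 1.9e-14), and the inhibitor Fbxo5 had one of -1.80 ± 0.083 (adjusted p = 5.1e-12). The subunit Anapc5 was higher in neurons by 0.27 ± 0.056 (adjusted p = 0.00036). With library size as the only scaling, 12 of these genes were higher in NPCs and no call was of a gene higher in neurons. With upper-quartile factors, 1 was higher in neurons and 6 in NPCs. Of 14 genes of the Fanconi pathway, 1 was higher in neurons (all genes 35.8%) and 11 in NPCs (all genes 36.9%), with a median of -0.81. Fancd2, the substrate of Ube2t, was at 4.28 and 3.76 CPM in neurons, against 17.7 and 19.0 CPM in NPCs (log2 -2.19 ± 0.11, adjusted p = 1.8e-11). Fanci, its partner, changed by -1.47 ± 0.083, and Usp1, which removes the ubiquitin again, by -1.02 ± 0.058. Fancg was the 1 gene higher in neurons (log2 0.58 ± 0.089, adjusted p = 2.0e-05). The summed mitosis genes moved the same way as Ube2t and the Fanconi genes, and the part of dividing cells in this was not tested.

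Of 12 ligases and partners that act with Ube2a, Ube2b or Ube2n, 3 were higher in neurons (all genes 35.8%) and 2 in NPCs (all genes 36.9%). The median was 0.039, and the counts became 1 and 8 by library size only and 2 and 4 with upper-quartile factors. Rad18, the ligase that brings Ube2a or Ube2b to PCNA, was at 11.5 and 12.9 CPM in neurons, against 24.5 and 26.4 CPM in NPCs (log2 -1.06 ± 0.088, adjusted p = 1.1e-08). Hltf, which works with Ube2n on the same clamp, rose by 0.46 ± 0.065 (adjusted p = 8.9e-06). Wac, a partner of the H2B ligases and the list's gene with the most counts, did not pass (log2 0.078 ± 0.053, adjusted p = 0.19). Of 13 SUMO ligases and proteases, 5 were higher in neurons (all genes 35.8%) and 5 in NPCs (all genes 36.9%). The median was 0.077, and by library size only the counts were 2 and 6. The protease gene Senp7 was at 122 and 124 CPM in neurons, against 79.8 and 79.0 CPM in NPCs (log2 0.63 ± 0.054, adjusted p = 1.5e-08), and the ligase gene Pias3 changed by -0.93 ± 0.11 (adjusted p = 1.1e-06). Pias2, another ligase gene, changed by 0.27 ± 0.056 (adjusted p = 0.00040).

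Of 20 genes of neddylation and cullin ligases, 10 were higher in neurons (all genes 35.8%) and 3 in NPCs (all genes 36.9%). The median was 0.12, and the counts became 5 and 7 with library size only and 7 and 6 with upper-quartile factors. Skp2, the substrate receptor that removes the cell cycle inhibitor p27, was at 51.7 and 53.6 CPM in neurons, against 126 and 126 CPM in NPCs (log2 -1.26 ± 0.056, adjusted p = 3.2e-12). The scaffold gene Cul2 rose by 0.51 ± 0.054 (adjusted p = 2.7e-07), and the adaptor gene Skp1a by 0.31 ± 0.054 (adjusted p = 9.2e-05). Of 13 tested genes of degradation at the endoplasmic reticulum, 5 were higher in neurons (all genes 35.8%) and 4 in NPCs (all genes 36.9%). The median was -0.015, and the counts became 1 and 7 with library size only and 3 and 6 with upper-quartile factors. Sel1l, the adaptor of the ligase Syvn1, was at 159.9 and 163 CPM in neurons, against 91.1 and 97.7 CPM in NPCs (log2 0.77 ± 0.056, adjusted p = 1.8e-09). The channel gene Derl1 had a log2 change of -0.47 ± 0.056 (adjusted p = 8.9e-07), and Vcp, the segregase that pulls proteins out, did not pass (log2 -0.075 ± 0.053, adjusted p = 0.21).

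Of 22 HECT and RBR ligases, which take ubiquitin from the E2 before passing it on, 13 rose in neurons (all genes 35.8%). In NPCs 4 were higher (all genes 36.9%), and the median log2 change was 0.28. With library size only, 9 rose in neurons and 6 were higher in NPCs. Hecw1, a HECT ligase known from brain, was at 287 and 276 CPM in neurons, against 40.5 and 43.9 CPM in NPCs (log2 2.74 ± 0.061, adjusted p = 1.7e-15). The RBR ligase gene Rnf14 was at 351 and 330.0 CPM in neurons, against 161 and 166 CPM in NPCs, a log2 change of 1.06 ± 0.055 (adjusted p = 2.5e-11). Nedd4, the ligase gene with the most counts of the list, was at 1173 and 1249.5 CPM in neurons, against 2097 and 2187 CPM in NPCs, a log2 change of -0.82 ± 0.058 (adjusted p = 1.3e-09).

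**Figure D4:**
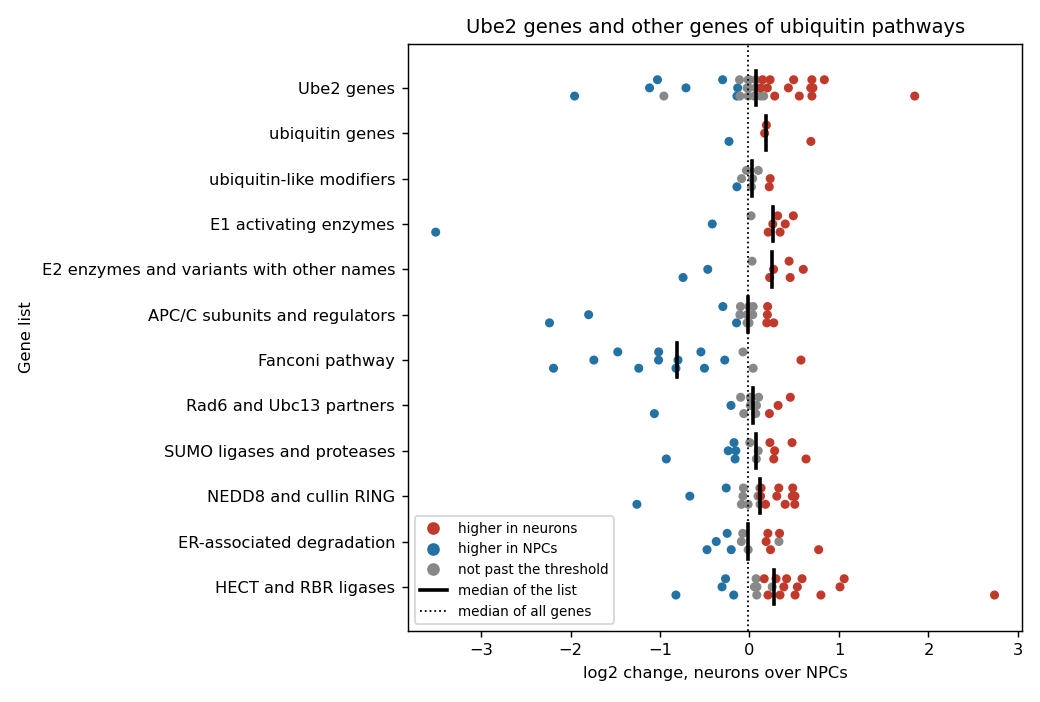
Log2 change of neurons over NPCs for each tested gene of the Ube2 family and of 11 lists of ubiquitin pathways; points are genes, coloured by call, thick bars are list medians and the dotted line is the median of all tested genes. The Fanconi list lies mostly to the left, with a median of -0.81, and most other lists have medians within 0.3 of 0.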

How the data were processed

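RNA-seq counts per gene from sorted mouse cortical neurons and NPCs, 2 libraries each, were used as the authors deposited them. The submitters' processing notes name the tools TopHat 1.2.0, SAMtools 0.1.18 and CASAVA 1.9, and build mm9. How reads were counted, on which annotation and with what strand setting is not given. The deposited values are estimated counts: all 88416 values under 10000 are whole numbers of bases divided by a read length of 101, within 0.01 base. They were rounded to whole counts. Totals of 52611828 to 55615142 counts per library limit precision less than the 2 libraries per group do, and floors cover counting error only.

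Genes passing edgeR's filterByExpr (15292 of 23240) were fitted with TMM factors and the quasi-likelihood test (edgeR 4.0.16, R 4.3.3), two-sided and unpaired, with adjusted p under 0.05 as the call. The standard error is the size of the log2 change over the root of its F statistic. The biological coefficient of variation was 4.89%. Duplicates differed by more than counting noise (chi-square per gene 14.1 in neurons and 4.56 in NPCs). DESeq2 1.42.0, limma-voom (limma 3.58.1), other scalings, filters, a replicate block and leaving out each library were the alternatives. On simulated data of 15076 genes, with 50 changed at each fold tried, 13 of 181 calls were false. Far more genes were called in the data (72.6%), so that rate need not hold there.

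The members and lists (237 genes in 20 lists, 230 tested) were chosen with earlier results of these data known. Per pathway list, the text names the 2 genes with the smallest p and the 1 with the highest mean CPM. Values of the Ube2 genes are given, except that 1 of them and 2 list genes are not reported here by name. Fbxw7, Isg15, Uba7, Sae1 and Fancg were named outside this rule, after their values were seen. Exon lengths and overlaps are from GENCODE M21 on GRCm38, used for lengths and neighbours only; near copies were sought in its transcripts with BLAST 2.17.0.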

Additional observations from a re-analysis of the deposited data

How the results depend on the processing

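Of the 21 called Ube2 genes, 14 kept their call under all 12 other settings, and leaving out 1 library gave 11 to 17 genes higher in neurons and 5 to 9 higher in NPCs, with 9773 to 11252 of all genes called. The lone library left in an arm is then assumed to vary like the other group. Scaling mattered most for small changes. By library size only, 9 were higher in neurons and 16 in NPCs, beside 3840 and 7610 of all 15292 genes, and the median of all genes moved to -0.23, from -0.019. The sign then turned for Ube2d2 (-0.0078), Ube2z (-0.049), Ube2n (-0.061), Ube2h (-0.081), Ube2j1 (-0.083), Ube2a (-0.14), Ube2j2 (-0.14) and Ube2l3 (-0.15). Of these, Ube2a and Ube2l3 passed as higher in NPCs (adjusted p = 0.039 and 0.019). With upper-quartile factors it turned for Ube2a (-0.030), Ube2j2 (-0.032) and Ube2l3 (-0.047). Ube2q1 and Ube2m turned to 0.0075 and 0.00077 with RLE factors, to 0.0081 and 0.0017 without the low-count filter, and to 0.0074 and 0.00078 with DESeq2. Without 1 library, Ube2q1 ranged over -0.060 to 0.074, Ube2m over -0.029 to 0.028, Ube2cbp over -0.10 to 0.073, Ube2j2 over -0.016 to 0.17, Ube2r2 over -0.041 to 0.031 and the log2 ratio change of Ube2j1 to Ube2j2 over -0.036 to 0.15. Called Ube2 genes among these reversals were 3 (Ube2d2, Ube2n and Ube2h, all by library size only); the cause was not tested.

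The replicate block gave 15 Ube2 genes higher in neurons and 7 in NPCs, with 11206 genes called. It added Ube2z (adjusted p = 0.023) and lost no call of a Ube2 gene. Deviations of same-numbered libraries correlated at -0.014, so the numbers are not taken as pairs.

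With 2 libraries per group, simulated 1.25-fold changes were recovered for 26 of 50 genes and 1.5-fold changes for 45 of 50. Simulated 2-fold changes were recovered for 47 of 50 and 4-fold for 50 of 50. Only these genes were changed among 15076 simulated, while 72.6% of all genes were called in the data. The same adjusted p then asks for a smaller p in the simulation, so its rates do not carry over. In the data, 8 Ube2 genes were called with a change under 1.25-fold, and other such changes can still be missed.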
